A study of Mus musculus with 4 samples.

Results

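The sterol-exporting ABC transporters are 6 mouse genes, Abca1, Abcg1, Abcg4, Abcg5, Abcg8 and Abca7, taken by the gene name printed in the array files. They carry 8 probes among 55681, and 5 of the 6 genes, with 7 of the 8 probes, were among the 24637 genes and named features measured. RNA came from primary hepatocytes of mice labelled bl6, labelled with Cy3 and hybridised to 1-colour Agilent arrays, 2 samples per group. The GW3965 group received 1 µM GW3965 overnight, a compound that activates the liver X receptors (LXR). Their treatment label sets LXR against GW3965, read here as treatment with this compound. The DMSO group received the solvent over the same time. Cells of both groups were also given 5 µM simvastatin, which blocks the enzyme that makes mevalonate, and 100 µM mevalonic acid in DMEM with 0.5% FBS, after growth in 10% FBS. Both groups therefore carried the statin and the mevalonic acid, so no comparison was made with cells left without them. The labels name the replicates a and b in each group without saying whether they are separate animals or cultures, so p-values measure only the spread between these samples, which may be technical.

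ABC transporters use ATP to move lipids and other compounds across or within membranes. ABCA1 passes cholesterol and phospholipid to lipid-poor apolipoprotein A-I, ABCG1 and its close relative ABCG4 pass sterols to HDL particles, and ABCG5 with ABCG8 forms the heterodimer that sends sterols from the hepatocyte into bile. ABCA7 is the closest relative of ABCA1. LXR binds oxysterols, pairs with the retinoid X receptor on direct repeats of AGGTCA-like copies spaced by 4 bases, and is known to activate Abca1, Abcg1, Abcg5 and Abcg8.

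The probes of 5 transporters are shown because each gene was read by so few of them. Each of these 7 probes is 60 bases long, and its first 30 bases are given 5′ to 3′ from the array files, in lower case, with positions and strand on mm9 (NCBI37).
Abca1, chr4:53043944-53044003, minus strand: gttgcatccctttttgtagaacatttatat
Abcg4 transcript ENSMUST00000085979, chr9:44087862-44087921, minus strand: tgtcccctcttcccagatgactcaagtttg
Abcg4 transcript NM_138955, probe A_55_P2018002, chr9:44081302-44081361, minus strand: tgtatctgccccaggttcttctcattacac
Abcg4 transcript NM_138955, probe A_66_P130654, chr9:44081286-44081345, minus strand: tcttctcattacacagagaccagttgtatt
Abcg5, chr17:85057593-85057652, minus strand: gcaatgtggtgcttggacattgtgactgaa
Abcg8, chr17:85098745-85098804, plus strand: acacggtggcaaagacaaatccagttgtct
Abca7, chr10:79478237-79478296, plus strand: agacagaggatctctgtaccatacgctggc
The NM_138955 probes of Abcg4 share 44 bases and are not independent readings. They lie 6.501 kb from the third Abcg4 probe. No run of 25 bases was shared between any other of the 8 probes and another probe of the array. Whether each probe lies in an exon or a UTR was not analysed here.

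Values below are log2 levels, the log2 of the processed signal minus the 75th percentile of its array, so that 0 marks that percentile. Probes differ in how they hybridise, and levels are compared between arrays for a probe and not between probes. Each of the 8 probes was printed once and carried no outlier flag. The scanner software put the error of a single spot between 10.0% and 14.7% of the signal for the 7 probes that passed the background filter, and all 7 were well above background on all 4 arrays. Between replicates the median pooled SD over all genes was 0.22 on the log2 scale. The number of arrays, 2 per group, limits the precision.

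**Figure D1:**
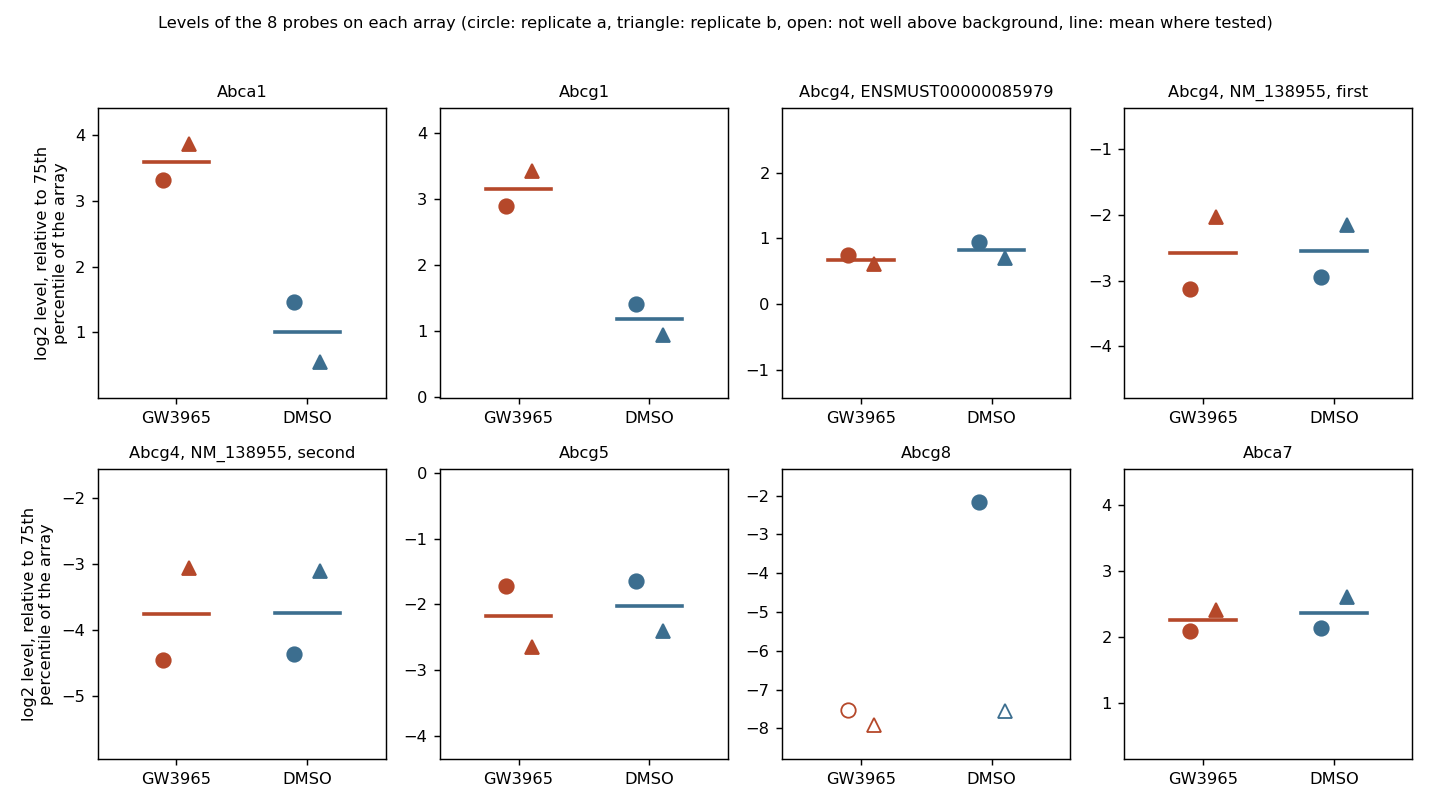
Log2 level of each of the 8 probes on the 4 arrays, relative to the 75th percentile of the array (vertical axis, range set per panel), GW3965 left and DMSO right. Circles are replicate a, triangles replicate b, open symbols are spots not well above background, and lines are group means of the 7 tested probes. The GW3965 arrays of Abca1 and Abcg1 lie between 2.89 and 3.85 and the DMSO arrays between 0.55 and 1.46, while the groups of the other tested probes overlap.

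Abca1 and Abcg1, the exporters to apolipoprotein A-I and to HDL, had higher levels on both GW3965 arrays than on both DMSO arrays. Abcg4, Abcg5 and Abca7 had log2 differences between -0.16 and -0.12, with overlapping groups. Over all genes, both GW3965 arrays stood above both DMSO arrays for 2319 of 24637 genes (9.41%), against 2 of the 5 measured transporters. Both stood below for 1613 genes (6.55%), against 0 of the 5. In RNA from whole cultures, a change in the number of cells of a type and a change of RNA per cell cannot be told apart.

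Abca1 read 3.31 and 3.85 in GW3965 replicates a and b, against 1.46 and 0.55 in DMSO replicates a and b. The processed signals behind these levels were 5056 and 9746 with GW3965 and 1497 and 888 with DMSO. The lowest GW3965 array thus lay well clear of the highest DMSO array. Group means were 3.58 ± 0.38 with GW3965 and 1.01 ± 0.64 with DMSO (SD, n = 2 each). The log2 difference was 2.58 ± 0.39 (SE), or 5.96-fold, with a 95% interval in limma from 2.95-fold to 12.0-fold. By limma the unadjusted p was 0.00145 and the p adjusted over all genes was 1.00. Abca1 stood at place 11 of 24637 genes both by p and by fold.

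Abcg1 read 2.89 and 3.42 in GW3965 replicates a and b, against 1.42 and 0.95 in DMSO replicates a and b. The processed signals were 3782 and 7223 with GW3965 and 1453 and 1165 with DMSO. As for Abca1, the groups did not overlap, and replicate b was the higher of the GW3965 arrays and the lower of the DMSO arrays. Group means were 3.16 ± 0.38 with GW3965 and 1.18 ± 0.33 with DMSO (SD, n = 2 each). The log2 difference was 1.98 ± 0.29 (SE), or 3.94-fold, with a 95% limma interval from 2.32-fold to 6.69-fold. The unadjusted limma p was 0.00135, place 10 among all genes, and the adjusted p was 1.00, while by fold Abcg1 was at place 24. An exact two-sided permutation test gave p = 0.333 for each of Abca1 and Abcg1, the smallest that 2 arrays against 2 allow.

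With limma and Benjamini-Hochberg adjustment over all genes, 0 of 24637 genes (0%) passed an adjusted p of 0.05, so no transporter was called changed. Over single probes the count was 0 of 35478 (0%). At an unadjusted p under 0.05, 159 genes (0.645%) were higher with GW3965 and 44 (0.179%) were lower. Abca1 and Abcg1 were among those higher, and 0 of the 5 transporters were among those lower. At least 2-fold higher with GW3965 were 109 genes (0.442%), again with 2 of the 5 transporters. Leaving out GW3965 replicate b gave 30 genes called and leaving out DMSO replicate b gave 66. In such a fit the lone array is assumed to vary like the arrays of the other group, whose spread alone enters. Abca1 and Abcg1 were not among the genes called, with adjusted limma p-values between 0.293 and 0.967.

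The 2 transporters did not differ by the same amount on both letters. Abca1 was 3.61-fold higher with GW3965 between the a arrays, a log2 difference of 1.85, and 9.85-fold higher between the b arrays, a log2 difference of 3.30. Abcg1 was 2.78-fold higher between the a arrays and 5.57-fold higher between the b arrays, log2 differences of 1.48 and 2.48. Thus both genes had the larger difference on the b arrays. The gap between letters was 1.45 for Abca1, and 267 genes (1.08%) had a larger one in size. For Abcg1 it was 1.00, with 680 genes (2.76%) larger. Replicate b minus replicate a was 0.54 for Abca1 and 0.53 for Abcg1 with GW3965, against -0.90 for Abca1 and -0.47 for Abcg1 with DMSO. Over all genes, which are not independent replicates, b minus a ran the same way in the 2 groups (r = 0.72 across 24637 genes), unlike in these 2.

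**Figure D2:**
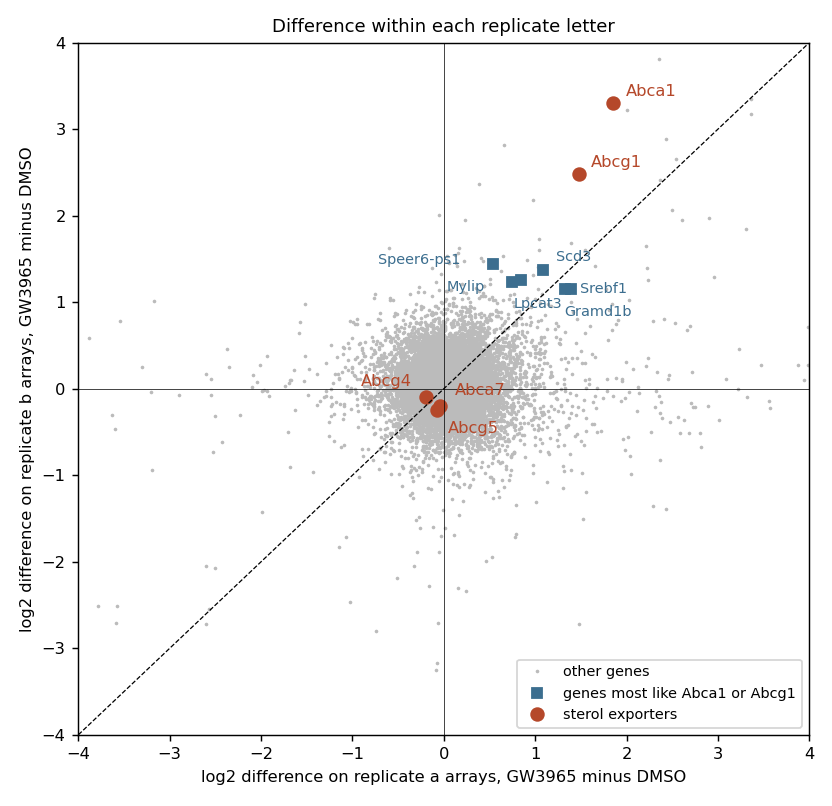
Log2 difference of GW3965 minus DMSO for each gene on the a arrays (horizontal) and the b arrays (vertical), with red circles for the 5 measured sterol exporters, blue squares for the genes whose profiles are most like Abca1 or Abcg1, and grey points for other genes. The dashed line marks equal differences, and 13 genes lie outside the axes at 4. Abca1 at 1.85 and 3.30 and Abcg1 at 1.48 and 2.48 lie above the line, and the other 3 exporters lie near 0 on both axes.

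Abcg4, which in mice is best known from the brain, was read by 3 probes. Its brightest, on the transcript ENSMUST00000085979, stood for the gene and was named Abcg4 by the array files and not by RefSeq. This probe read 0.74 and 0.62 in GW3965 replicates a and b, against 0.94 and 0.71 in DMSO replicates a and b. The processed signals were 853 and 1032 with GW3965 and 1045 and 989 with DMSO. These ranges overlap, with DMSO replicate a the highest array. Its log2 difference was -0.14 ± 0.20 (SE), with a 95% limma interval from -0.67 to 0.38 and an unadjusted limma p of 0.500. Probe A_55_P2018002 read -3.13 and -2.04 with GW3965 and -2.94 and -2.15 with DMSO, a difference of -0.04 ± 0.47 (SE). Probe A_66_P130654 read -4.45 and -3.06 with GW3965 and -4.37 and -3.11 with DMSO, a difference of -0.02 ± 0.63 (SE). On these overlapping probes, which RefSeq does name Abcg4, the processed signals lay between 23.2 and 164. Their log2 levels were higher on the b arrays than on the a arrays in both groups, which the brightest probe did not show.

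Abcg5 and Abcg8, the partners of the biliary exporter, are both known LXR targets in mouse liver. Abcg5 read -1.71 and -2.65 in GW3965 replicates a and b, against -1.64 and -2.40 in DMSO replicates a and b. The a array was the higher in each group and the groups overlapped almost fully. The processed signals were 155 and 108 with GW3965 and 175 and 115 with DMSO. The log2 difference was -0.16 ± 0.43 (SE), its 95% limma interval from -1.29 to 0.97 and its unadjusted limma p 0.727. That interval holds a fold of GW3965 over DMSO from 0.410 to 1.96. Its direction was not stable: without GW3965 replicate b the difference was 0.31, and without DMSO replicate a it was 0.22.

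Abcg8 was the transporter that was not measured. Its probe was well above background on DMSO replicate a alone, where the processed signal was 120.5. On the other arrays the signal was 2.76 and 2.77 with GW3965 and 3.23 in DMSO replicate b, values that the scanner software had set in place of a measured one. The corresponding log2 levels were -7.53 and -7.92 with GW3965, and -2.18 and -7.55 with DMSO. The DMSO arrays thus differed from each other by 5.37 on the log2 scale, and no level of the group can be drawn from them.

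Abca7, which in other cell types is linked to phospholipid handling and phagocytosis, read 2.10 and 2.41 in GW3965 replicates a and b, against 2.14 and 2.61 in DMSO replicates a and b. The processed signals were 2181 and 3577 with GW3965 and 2399 and 3686 with DMSO. The groups overlapped, with the b array the higher in both. The log2 difference was -0.12 ± 0.26 (SE), its 95% limma interval from -0.79 to 0.55 and its unadjusted limma p 0.660. Without GW3965 replicate a it was 0.035, and without DMSO replicate b it was 0.11. Exact permutation tests gave p = 0.667 for each of Abcg4, Abcg5 and Abca7.

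Differences between transporters were set against each other array by array, in 10 pairs. The difference of Abca1 exceeded that of Abcg1 by 0.60 on the log2 scale, by 0.38 on the a arrays and 0.82 on the b arrays. It exceeded those of Abcg4, Abcg5 and Abca7 by between 2.70 and 2.74. For Abcg1 the excess over the same 3 genes was between 2.10 and 2.14. In these 7 pairs both GW3965 arrays stood above both DMSO arrays, and the exact permutation p was 0.333, its smallest possible value. The pairs reuse the same genes and arrays, so their separation is not independent of the single-gene results. The 3 pairs among Abcg4, Abcg5 and Abca7 differed by at most 0.04 in size, with overlapping arrays.

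The promoter was examined because Abca1 and Abcg1 stood apart while Abcg5 did not. Windows from 250 bases before to 50 after a gene's start came from RefSeq (GRCm38.p6), which held 5 windows for 4 of the transporters, Abca1, Abcg5, Abcg8 and Abca7. They were searched on both strands for 2 copies of AGGTCA in direct repeat with 4 bases between. With at most 1 mismatch allowed in each copy, 0 of the 5 windows matched, against 575 of 32851 promoters (1.75%). The closest stretch in the Abca1 window had 3 mismatches, 2 in the first copy and 1 in the other, and 21.9% of promoters held a stretch at least as close. In the other 4 windows the closest had 4 mismatches, as close as in 76.9% of promoters. The 250 bases before the Abca1 start follow (window chr4:53159846-53160145, minus strand, GRCm38.p6), with that stretch, at positions -67 to -52 relative to the start, in capitals.
Abca1 promoter: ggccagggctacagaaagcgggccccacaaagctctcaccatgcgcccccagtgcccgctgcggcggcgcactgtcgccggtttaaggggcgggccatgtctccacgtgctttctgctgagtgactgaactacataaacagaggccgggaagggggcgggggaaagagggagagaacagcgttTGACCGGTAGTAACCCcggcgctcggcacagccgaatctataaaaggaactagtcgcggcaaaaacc
Read on the opposite strand the stretch is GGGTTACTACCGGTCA. Abcg8 had 2 windows. From its start at chr17:84683121 it is transcribed away from Abcg5, whose start is at 84683011, and 109 bases separate these starts. The other Abcg8 start, at 84676302, lies on the far side of the Abcg5 start, and transcription from it runs towards Abcg5. The stretch between the nearer starts (chr17:84683012-84683120, GRCm38.p6, plus strand) is shown because both genes of this exporter have a start beside it.
Between Abcg5 and Abcg8: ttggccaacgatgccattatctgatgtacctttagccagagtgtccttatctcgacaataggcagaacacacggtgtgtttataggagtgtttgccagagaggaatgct
These matches describe letters in the windows, and binding was not measured. Abcg1 had no window, and sequence farther than 250 bases before a start was not searched. Closeness was counted against the exact letters AGGTCA, while LXR elements hold AGGTCA-like copies. The search therefore cannot tell whether a transporter has or lacks such an element.

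Among the other ABC transporters, 44 names were on the array and 33 were measured. By limma 0 of the 33 passed the adjusted p, and 0 had an unadjusted p under 0.05. Their median log2 difference was -0.01, the same to 2 decimals as that over all genes, with a range from -0.17 to 0.31. None of the 33 reached the difference of Abca1 or Abcg1. Smallest in p among those with a higher GW3965 mean were Abcc2, which exports conjugated bilirubin into bile, at 0.31 ± 0.19, Abcd4 at 0.29 ± 0.26, Abca2 at 0.22 ± 0.20 and Abcc9 at 0.14 ± 0.19 (SE). With a lower GW3965 mean these were Abcd3, a peroxisomal transporter, at -0.17 ± 0.21, Abcg2 at -0.15 ± 0.18, Abca17 at -0.17 ± 0.30, Abca6 at -0.14 ± 0.28 and Abca8b at -0.11 ± 0.26 (SE). Abcc2 and Abca2, 2 of the 33, had both GW3965 arrays above both DMSO arrays, and Abcg2 had both below, beside 9.41% and 6.55% of all genes.

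**Figure D3:**
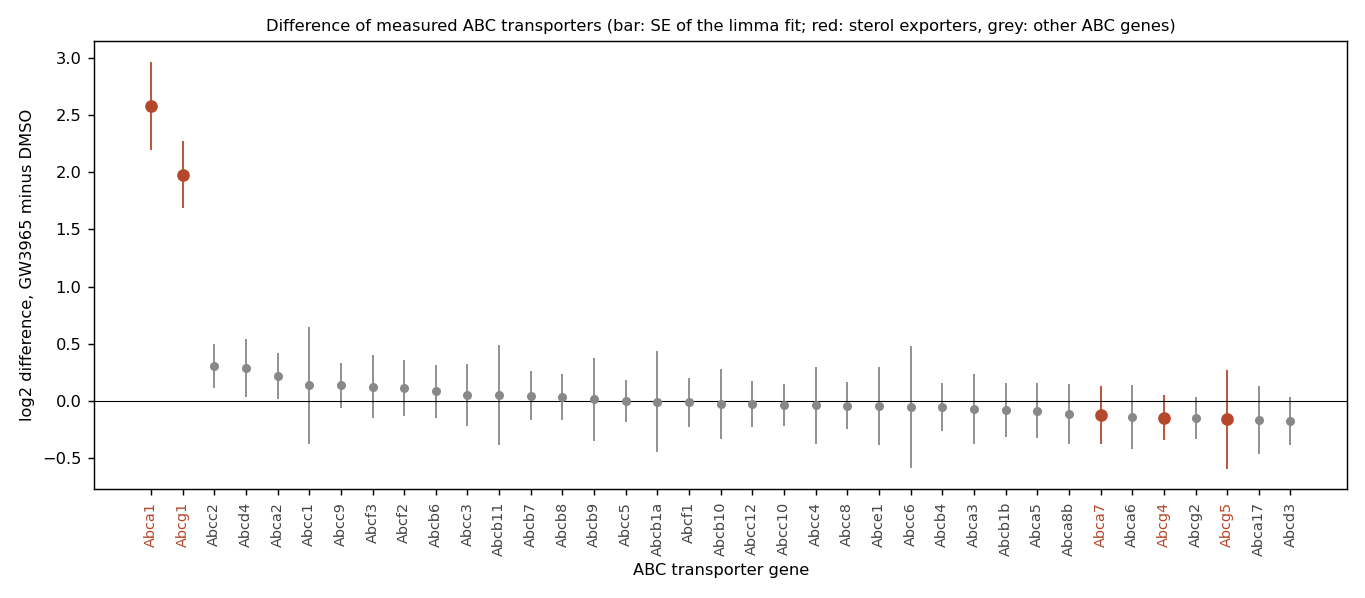
Log2 difference of GW3965 minus DMSO for measured ABC transporters (vertical), ordered by size (horizontal), with red points for the 5 sterol exporters and grey points for 32 others. Bars are the SE of the limma fit, and the 32 other transporters plotted lie between -0.17 and 0.31, with Abca1 at 2.58 and Abcg1 at 1.98 above them.

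The genes that supply, sense or accept the exported sterol held 0 genes with an adjusted limma p under 0.05. Of 14 genes of intracellular sterol supply and storage, all were measured, and 1, Gramd1b, had an unadjusted limma p under 0.05, beside 0.645% of all genes higher and 0.179% lower. The list had 6 higher and 8 lower means with GW3965 and a median log2 difference of -0.03. Gramd1b encodes a protein that carries cholesterol from the plasma membrane to the endoplasmic reticulum. It read 1.41 and 1.50 with GW3965, against 0.013 and 0.35 with DMSO, a log2 difference of 1.27 ± 0.21 (SE). Its groups did not overlap, and limma gave it an unadjusted p of 0.00222. Nceh1, a cholesteryl ester hydrolase, stood at -0.26 ± 0.19, Soat1, which esterifies cholesterol, at -0.33 ± 0.33, and the oxysterol-binding protein gene Osbp at 0.20 ± 0.21 (SE). Of the 14, 1 had both GW3965 arrays above both DMSO arrays, Gramd1b, and 1 had both below, Nceh1, beside 9.41% and 6.55% of all genes.

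All 15 genes of LXR, its partners and coregulators were measured, with 10 higher and 5 lower means and a median of 0.0045 on the log2 scale. The receptor genes Nr1h3 (LXR alpha) and Nr1h2 (LXR beta), named outside the rule and after their values were seen, stood at 6.6e-04 ± 0.47 and -0.02 ± 0.22 (SE). Under the rule came Ncor1, a corepressor, at 0.28 ± 0.22, Gps2, a partner of the corepressor complex, at 0.28 ± 0.34, Rxra, the retinoid partner, at 0.14 ± 0.18, and Ncoa2, a coactivator, at -0.14 ± 0.19 (SE). Both GW3965 arrays stood above both DMSO arrays for 2 of the 15, Ncor1 and Rxra, and below for 1, Ncoa2, beside 9.41% and 6.55% of all genes.

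Of 12 genes for sterol acceptors and HDL remodelling, 11 were measured, 7 with higher and 4 with lower means, and the median was 0.03. Pltp, the phospholipid transfer protein, stood at 0.19 ± 0.28, Lcat, which esterifies HDL cholesterol, at 0.13 ± 0.44, Scarb1, the HDL receptor, at 0.08 ± 0.22, and Pdzk1, which anchors that receptor, at -0.09 ± 0.41 (SE). Of the 11, 0 had groups that did not overlap, where 9.41% of all genes were above and 6.55% below. Of 11 bile lipid genes, 10 were measured, 5 with higher and 5 with lower means, and the median was -0.01. Nr1h4, the bile acid receptor FXR, stood at -0.31 ± 0.30, Pctp, a phosphatidylcholine carrier, at 0.20 ± 0.19, and Slc10a1, the basolateral bile acid importer, at -0.20 ± 0.26 (SE). Of these 10, Abcc2 and Pctp had both GW3965 arrays above both DMSO arrays and 0 had both below. In limma 0 genes of these lists passed the adjusted p, as over all genes.

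The labelled cell type was checked with 12 hepatocyte markers, all measured, whose median log2 difference was -0.03. Their summed signal, in units of the array's 75th percentile, was 3811 and 2134 with GW3965, against 3625 and 2576 with DMSO in replicates a and b. It was higher on the a arrays in both groups. Macrophages also express Abca1 and Abcg1, and 14 of 15 Kupffer cell, macrophage and leukocyte markers were measured, with a median of -0.01 and sums of 142 and 89.6 with GW3965 and 128 and 82.5 with DMSO. Of these, Cd5l stood at 0.71 ± 0.76, Lyz2 at -0.30 ± 0.27, Vsig4 at -0.31 ± 0.37 and Marco at -0.25 ± 0.34 (SE), all with overlapping groups. Medians were 0.15 for 8 of 8 endothelial markers, 0.15 for 8 of 9 stellate cell and fibroblast markers and -0.22 for 5 of 6 cholangiocyte markers. The GW3965 mean was higher for all 8 endothelial, 6 of 8 stellate cell and fibroblast and 2 of 5 cholangiocyte markers. Over all genes it was higher for 11944 of 24637. The endothelial differences lay between 0.06 and 0.25, and 0 of them had an unadjusted limma p under 0.05. Tek at 0.25 ± 0.21, Pdgfrb at 0.39 ± 0.18 and Krt23 at 0.49 ± 0.22 (SE) had both GW3965 arrays above both DMSO arrays. Spp1 at -0.23 ± 0.19 (SE) had both below. Over all genes, 9.41% stood above and 6.55% below. The sums for endothelial cells were 41.8 and 54.4 with GW3965 and 39.4 and 51.0 with DMSO. For stellate cells and fibroblasts they were 86.7 and 58.5 with GW3965 and 81.1 and 58.7 with DMSO, and for cholangiocytes 57.4 and 63.9 with GW3965 and 62.6 and 76.2 with DMSO. Timd4, Lrat and Krt7 were not measured, and the part of other cell types in the transporter differences was not tested.

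Genes with a pattern like that of Abca1 or Abcg1 were ranked by the Euclidean distance between centred log2 levels over the 4 arrays, among 23551 genes well above background on all of them. Abca1 and Abcg1 were nearest to each other, at a distance of 0.67. Next to both came Scd3, a stearoyl-CoA desaturase, at 1.48 from Abca1 and 0.92 from Abcg1. After it came Srebf1, the transcription factor of fatty acid synthesis (1.60 and 0.95), Gramd1b (1.60 and 0.96) and Lpcat3, a phospholipid-remodelling enzyme (1.64 and 0.98). The fifth place went to Speer6-ps1 for Abca1, at 1.74, and to Mylip, which promotes breakdown of the LDL receptor, for Abcg1, at 1.10. These distances are a description of 4 arrays and carry no test.

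The log2 differences of these neighbours were 1.23 ± 0.25 for Scd3, 1.24 ± 0.20 for Srebf1, 1.05 ± 0.21 for Lpcat3, 0.99 ± 0.29 for Mylip and 0.99 ± 0.47 for Speer6-ps1 (SE). Each was smaller than that of Abcg1. Scd3 read 1.48 and 1.25 with GW3965, against 0.39 and -0.12 with DMSO. Srebf1 read 0.37 and 0.43 with GW3965, against -0.96 and -0.72 with DMSO, so that its DMSO gap between letters ran opposite to that of Abca1. Lpcat3 read 4.26 and 4.54 with GW3965, against 3.42 and 3.29 with DMSO. Mylip read 0.48 and 1.16 with GW3965, against -0.27 and -0.08 with DMSO. Speer6-ps1 read 0.30 and -0.08 with GW3965, against -0.24 and -1.53 with DMSO, and its arrays lay closest together between groups. As with the transporters, none passed the adjusted p in limma.

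Probes within 100 kb of each transporter probe were compared to see what the neighbouring genes did. Each window was centred on the probe and not on the start of the gene, so it need not reach that start. Around Abca1, 4 probes were present and 2 passed the background filter, both of Nipsnap3b, at -0.21 ± 0.28 and -0.22 ± 0.22 (SE), 9.07 and 10.8 kb downstream. Nipsnap3a and Olfr270 were not well above background. All 4 probes lay downstream of the Abca1 probe, so nothing upstream of Abca1 was compared. Around Abcg1, 3 of 4 probes passed, Tff3 at -0.03 ± 0.49 and those of Tmprss3 at -0.06 ± 0.26 and 0.06 ± 0.21 (SE), while Tff2 did not pass. Of these 5 probes, 0 had both GW3965 arrays above both DMSO arrays and 1, of Nipsnap3b, had both below, beside 9.41% and 6.55% of all genes. For Abcg4, 13 of 15 probes passed, with differences from -0.13 to 0.12, and for Abca7 all 15 passed, with differences from -0.20 to 0.30. Both GW3965 arrays stood above both DMSO arrays for 3 of the 15 Abca7 neighbours, beside 9.41% of all genes, a share over genes and not probes. These were both probes of Wdr18, at 0.09 and 0.14, and 1 of Sbno2, at 0.13. Abcg5 and Abcg8 share 4 neighbouring probes, of which those of Lrpprc at -0.08 and Dync2li1 at -0.13 passed.

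**Figure D4:**
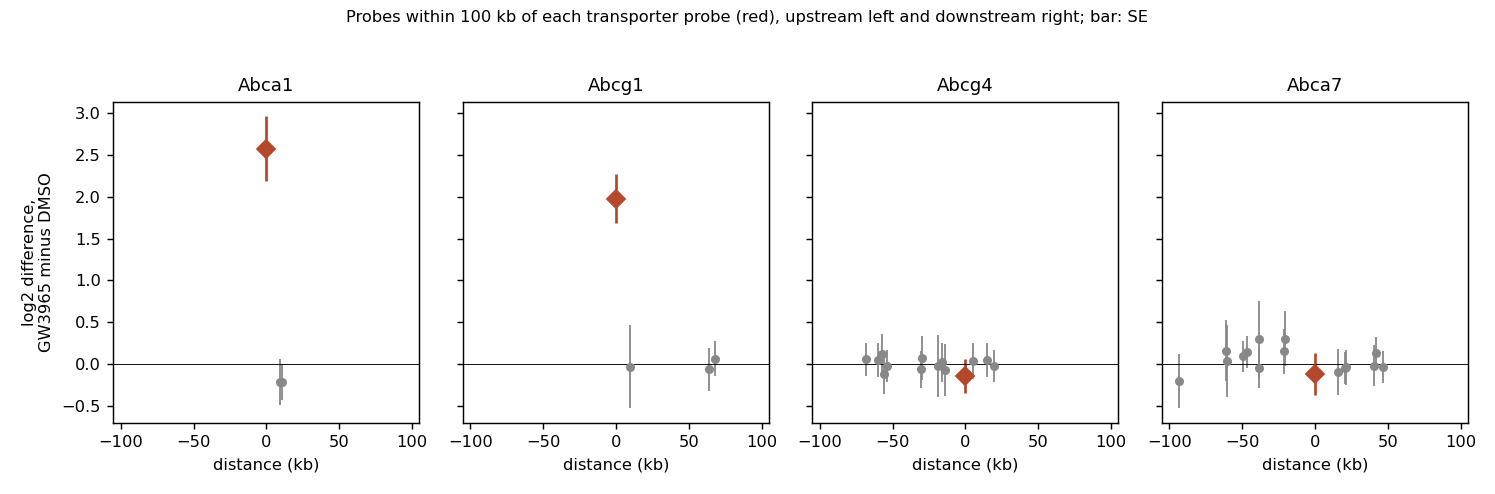
Log2 difference of GW3965 minus DMSO (vertical) for probes within 100 kb of the Abca1, Abcg1, Abcg4 and Abca7 probes (red diamonds at 0), against distance in kb (horizontal, upstream left). Bars are the SE of the limma fit, grey points are neighbouring probes that passed the background filter, and they lie between -0.22 and 0.30 in all 4 panels.

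Abca1 and Abcg1 kept their direction under each alternative processing. The range of Abca1 with 1 array left out was 4.36-fold to 8.16-fold, and that of Abcg1 was 3.27-fold to 4.73-fold. Under the other settings the log2 difference of Abca1 lay between 2.51 and 2.59 and that of Abcg1 between 1.93 and 1.99. The smallest adjusted limma p over all settings was 0.189 for Abca1 and 0.177 for Abcg1. For Abcg5 and Abca7 the spread over arrays left out included 0.

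**Figure D5:**
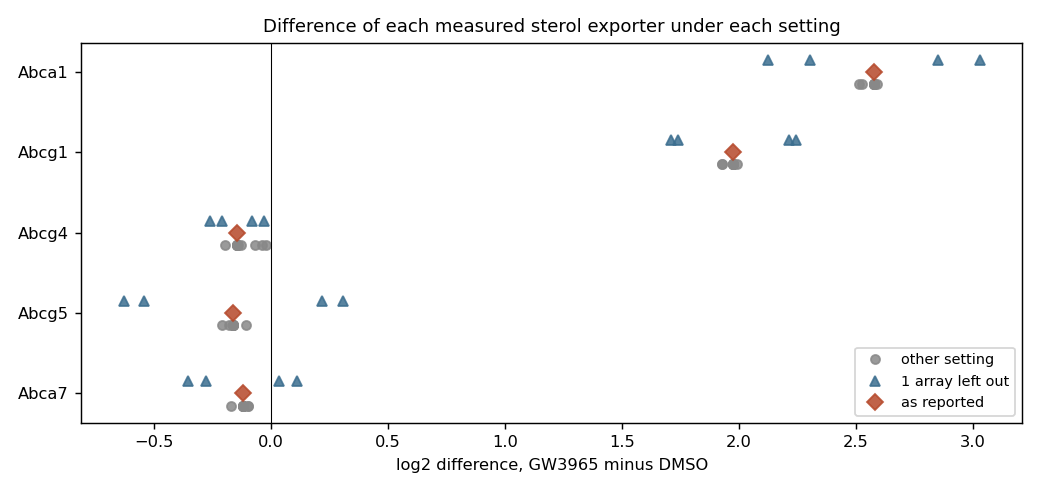
Log2 difference of GW3965 minus DMSO (horizontal) for the 5 measured sterol exporters (rows), with the reported value as a red diamond, values with 1 array left out as blue triangles and values under other settings as grey circles. Abca1 stays between 2.12 and 3.03 and Abcg1 between 1.71 and 2.24, while Abcg5 and Abca7 fall on both sides of 0.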

How the data were processed

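The authors deposited scanner output of Agilent Feature Extraction for 4 arrays of 1 slide, read in 1 scan. Per the file headers, the processed signal is a linear intensity corrected for background and spatial trend and not scaled between arrays, from version 10.7.3.1, while the submitters' processing notes name 11.5.1.11. The authors' deposited value table repeats this intensity, differing by at most 0 at any of 62976 features. Per the file headers, the deposited p-value of each spot tests its signal against background. Outlier spots (83 to 141 per array) were left out, leaving 9 probes without a spot, and 0 spots were saturated. Between 62.5% and 69.1% of probes were well above background. Spots of a probe were averaged on the log2 scale after subtracting the array's 75th percentile. The 35478 probes kept were those that the software called well above background on both arrays of 1 group or more, and the brightest stood for its gene. RefSeq accessions named 26762 probes and the files 28919.

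The group term was tested in limma 3.58.1 under R 4.3.3 (prior df 2.72, residual df 2, two-sided, Benjamini-Hochberg over all genes), which was tested on simulated data. The transporters, gene lists and tests were chosen with earlier results of these data known. Named genes are all transporters, up to 4 of each list with the smallest p, up to 5 other ABC transporters in each direction, the 5 nearest profiles of Abca1 and of Abcg1, and genes within 100 kb; 1 of the other ABC transporters and 1 probe sequence are not reported here. Alternatives were normexp background (offset 50), median centring, quantile normalization, the value table, no filter or all arrays above background, averaging the probes of a gene, single probes, a trend or robust prior, an adjusted p of 0.1, a replicate block and each array left out. Figures used matplotlib 3.10.9.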

Additional observations from a re-analysis of the deposited data

How the results depend on the processing

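Of 92 alternative values of the main results, 85 kept their direction and their side of the threshold. The count of genes called, 0 as reported, was 15 with the replicate letter as a block, ranged from 0 to 66 with 1 array left out (30 without GW3965 replicate b), and was 0 under the other settings. Letters a and b pair the samples only by name: b minus a correlated between groups over genes (r = 0.72), which 2 pairs cannot settle. With the block, Abca1 kept its log2 difference of 2.58 and Abcg1 its 1.98, and limma gave adjusted p-values of 0.189 and 0.177. With 1 array left out, Abcg5 ranged from -0.63 to 0.31 and Abca7 from -0.35 to 0.11, at the gene and at the probe. The Abcg4 probes A_55_P2018002 and A_66_P130654 ranged from -0.58 to 0.51 and from -0.72 to 0.68, and the first was 0.0078 with normexp background. The causes were not tested. With 2 arrays per group an exact permutation p cannot go below 0.333, and Abcg8, dim on 3 arrays, has no measured difference.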

Other observations

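The Abcg8 spot on DMSO replicate a had a pixel CV of 32.5% and a log2 level 5.35 above the next array. Of its 24 neighbouring spots on that array, 13 were well above background and 2 were marked as outliers. Probes that stood well above background on no array but DMSO replicate a numbered 241, and 17 of them (7.05%) had a gap at least as large. The same count of probes was 380 for GW3965 replicate a, 1834 for GW3965 replicate b and 312 for DMSO replicate b. These counts were chosen after the data were seen, and no cause of the single-array signal was tested.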
